A study of Mus musculus with 12 samples.

Results

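BRD2 and BRD3 were compared in untreated RAW264.7 cells, a macrophage-like mouse line used as a model of osteoclast precursors, by the regions called for each protein after chromatin immunoprecipitation and sequencing (ChIP-seq). The untreated lists held 578 BRD2 regions and 3668 BRD3 regions, together 4246 of the 16188 regions in the 8 peak lists of the series. A region was co-bound when it overlapped a region of the other protein by at least 1 bp. By that rule 315 BRD2 regions and 313 BRD3 regions were co-bound, 263 were BRD2 without BRD3 and 3355 were BRD3 without BRD2.

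Both untreated libraries came from the same line without any agent, fixed for 15 min in 1% formaldehyde and sequenced as single-end 50 bp reads. The labels give the bone marrow as the source of this monocyte-derived line and name no genetic change. The other lists, used here to see whether a region was called again, came from cells given RANKL (50 ng/ml), the BET inhibitor I-BET (500 nM) or both for 4 h. Each antibody and treatment has 1 library, so every share below has no replicate check and its 95% interval (exact, Clopper-Pearson) covers counting error only. Depth is unknown because the lists hold no read counts, and its part in how many regions were called was not tested.

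BRD2 and BRD3 belong to the BET family, whose paired bromodomains bind acetylated lysines on histone tails and whose extraterminal domain recruits other proteins. They sit mainly at active promoters and enhancers and are known for promoting transcription through acetylated chromatin. I-BET occupies the bromodomains and so displaces BET proteins from chromatin, and RANKL is the ligand that drives osteoclast precursors to differentiate.

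The bases before the transcription starts differed between the classes in short motifs that are known sites of promoter factors, and 9 examples are shown here because the comparison of promoters turns on these letters. Each is the 150 bases that end just before the start, from RefSeq (GRCm38.p6), written 5′ to 3′ along the gene's strand. All lie within the region called. Hnrnpul1 and Brd2 were named by rule, and the others were chosen by their number of matches after values were seen. For BRD2 without BRD3, capitals mark CCGGAAGT, an ETS-family site, in either direction. The stretches are chr4:117682226-117682375 (minus strand) for Dmap1, a subunit of a histone acetyltransferase complex, chr10:76468752-76468901 (plus) for Mcm3ap, an mRNA export factor, and chr15:5116463-5116612 (plus) for the ribosomal protein gene Rpl37.
Dmap1: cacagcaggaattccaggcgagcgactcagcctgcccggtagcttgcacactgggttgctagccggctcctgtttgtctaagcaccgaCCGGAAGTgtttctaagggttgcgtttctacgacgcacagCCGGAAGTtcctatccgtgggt
Mcm3ap: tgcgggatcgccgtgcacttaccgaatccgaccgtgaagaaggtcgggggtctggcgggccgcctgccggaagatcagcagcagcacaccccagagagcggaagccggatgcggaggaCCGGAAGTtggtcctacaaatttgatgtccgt
Rpl37: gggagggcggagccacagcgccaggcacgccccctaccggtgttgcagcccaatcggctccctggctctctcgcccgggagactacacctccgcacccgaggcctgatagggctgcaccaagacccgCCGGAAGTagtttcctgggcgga
In the BRD2 region at Hnrnpul1, an RNA-binding protein gene, capitals mark AAGATGGC, a YY1 site, in the reverse direction (chr7:25754760-25754909, minus strand).
Hnrnpul1: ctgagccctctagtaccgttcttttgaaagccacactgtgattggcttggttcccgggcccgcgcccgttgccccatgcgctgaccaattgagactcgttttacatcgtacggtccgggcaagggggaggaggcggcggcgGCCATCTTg
For BRD3 without BRD2, capitals mark GCATGCGC, a site of nuclear respiratory factor 1 (NRF1), a factor known at promoters of mitochondrial and housekeeping genes. A palindrome of 2 overlapping matches reads as a longer run of capitals. The stretches are chr17:34122608-34122757 (minus) for Brd2 itself, chr10:41809869-41810018 (minus) for the centrosomal protein gene Cep57l1 and chr3:53017224-53017373 (minus) for Cog6, a Golgi tethering subunit.
Brd2: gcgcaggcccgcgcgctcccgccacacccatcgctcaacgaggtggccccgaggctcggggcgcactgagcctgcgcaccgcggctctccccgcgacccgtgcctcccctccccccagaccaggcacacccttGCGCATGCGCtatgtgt
Cep57l1: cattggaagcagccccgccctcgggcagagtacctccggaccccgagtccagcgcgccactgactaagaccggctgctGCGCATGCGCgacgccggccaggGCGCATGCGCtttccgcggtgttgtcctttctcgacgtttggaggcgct
Cog6: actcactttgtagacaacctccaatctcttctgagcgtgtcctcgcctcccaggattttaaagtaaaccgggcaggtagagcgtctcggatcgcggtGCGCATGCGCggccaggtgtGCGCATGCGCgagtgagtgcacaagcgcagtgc
From promoters with both proteins come Snrnp70, a core protein of the U1 spliceosomal particle, with the NRF1 letters (chr7:45395743-45395892, minus), and Acp2, a lysosomal phosphatase gene, with the ETS letters (chr2:91202762-91202911, plus).
Snrnp70: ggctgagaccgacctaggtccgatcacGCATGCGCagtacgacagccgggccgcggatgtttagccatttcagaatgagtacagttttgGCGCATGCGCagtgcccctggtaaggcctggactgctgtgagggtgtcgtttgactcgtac
Acp2: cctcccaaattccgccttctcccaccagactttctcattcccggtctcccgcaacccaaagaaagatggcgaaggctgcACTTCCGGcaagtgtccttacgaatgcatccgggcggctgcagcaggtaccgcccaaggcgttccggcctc

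BRD3 was called at most of the sites of BRD2, while BRD2 was called at few of the sites of BRD3. Of the 578 BRD2 regions, 315 overlapped a BRD3 region (54.5%, 95% interval 50.3% to 58.6%). Of the 3668 BRD3 regions, 313 overlapped a BRD2 region (8.53%, 7.65% to 9.48%). The lists differ in length, so the shares were also taken with the BRD3 list cut to the length of the BRD2 list. With the highest-scoring BRD3 regions kept, 51 of the 578 regions of each list overlapped (8.82%, 6.64% to 11.4%). With the widest BRD3 regions kept, 111 BRD2 regions did (19.2%, 16.1% to 22.7%). The score is the authors' own value per region and is used here only to rank regions within a list.

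Where both proteins were called, their regions were nearly concentric. The 316 overlapping pairs had a median distance of 130 bp between midpoints (quartiles 58.8 bp and 282 bp), and in 222 pairs (70.3%) the midpoints lay within 250 bp. The BRD3 region covered a median of 97.1% of its BRD2 partner, and the BRD2 region 73.6% of its BRD3 partner. The BRD2 region lay wholly inside the BRD3 region in 133 pairs, and the reverse held in 48. BRD3 was as wide or wider in 227 pairs and BRD2 was wider in 89.

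Called regions of BRD2 and BRD3 either overlapped well or lay apart. The smallest overlap of any pair was 196 bp, and the closest BRD2 and BRD3 regions that did not overlap were 1911 bp apart. A BRD2 region without BRD3 lay a median of 139 kb from the nearest BRD3 region, and 12 of the 263 (4.56%) lay within 10 kb of one. For the more numerous BRD3 regions without BRD2 the median distance to BRD2 was 1040 kb, and 41 of 3355 (1.22%) lay within 10 kb. Neighbouring regions within a list were themselves a median of 175 kb (BRD3) and 1519 kb (BRD2) apart. A site just under the calling cutoff has no region, so distance cannot show near misses in calling.

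Co-bound regions were wide. The median width was 969 bp for co-bound BRD2 regions (quartiles 666 bp and 1310 bp) against 698 bp (489 bp and 932 bp) for BRD2 without BRD3. Co-bound BRD3 regions had a median of 1098 bp (739 bp and 1690 bp) against 684 bp (522 bp and 1057 bp) for BRD3 without BRD2. Of the co-bound BRD3 regions, 64 (20.4%) were over 2 kb wide, and of those without BRD2, 217 (6.47%) were. From the narrowest to the widest quartile of the BRD2 list, the co-bound share was 33.8%, 50.0%, 56.2% and 77.9%. In the BRD3 list it was 0.763% (0.307% to 1.57%), 6.65%, 9.92% and 16.8% (14.4% to 19.4%), and it reached 28.0% (19.8% to 37.5%) for the 107 regions over 3 kb. A wider region has more bases with which to overlap, and how much of the trend this accounts for was not tested. The score showed no such order: co-bound shares by score quartile ran from 7.52% to 9.27% for BRD3 and from 47.9% to 60.4% for BRD2.

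**Figure D1:**
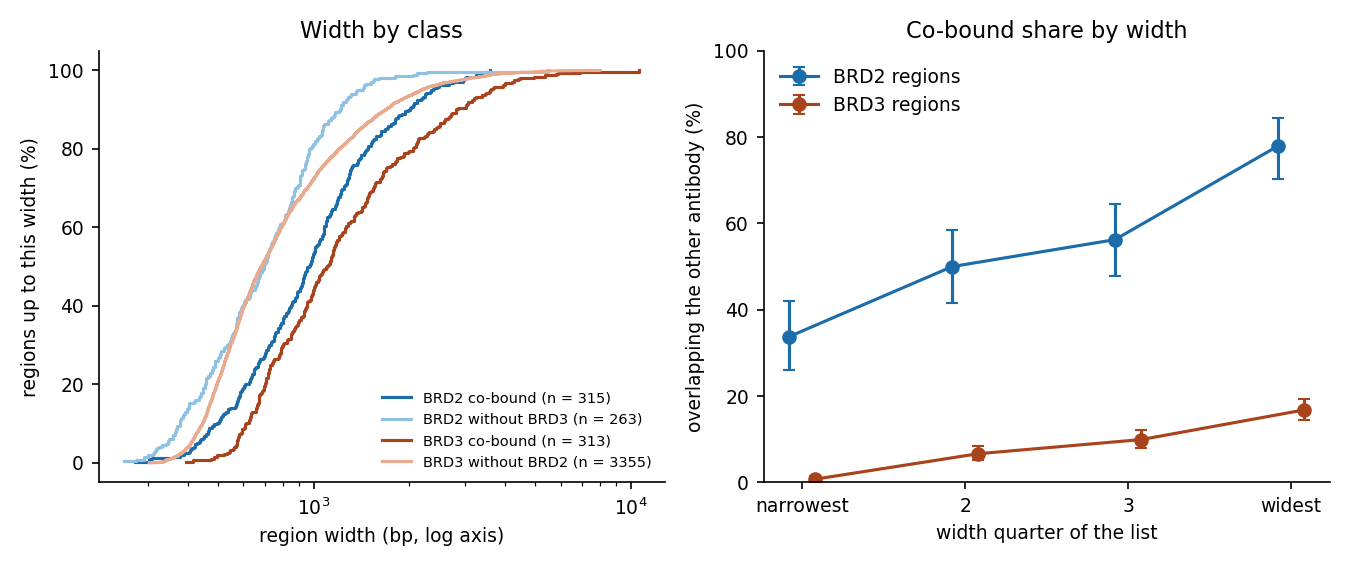
Left, cumulative share of regions (vertical axis, percent) up to each width (horizontal log axis, bp) for the 4 classes. Right, share of regions overlapping the other protein (percent) in each width quartile of the BRD2 and BRD3 lists, with exact 95% intervals. Co-bound regions lie to the right on the left plot, and the co-bound share is highest in the widest quartile of each list, 77.9% for BRD2 and 16.8% for BRD3.

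All classes lay mainly at genes. Regions whose midpoint was no more than 1 kb from the end of a protein-coding gene, 5′ or 3′, were counted as gene-end regions. That held for 193 of 263 BRD2 regions without BRD3 (73.4%, 67.6% to 78.6%), for 205 of 315 co-bound BRD2 regions (65.1%, 59.5% to 70.3%), for 197 of 313 co-bound BRD3 regions (62.9%, 57.3% to 68.3%) and for 2235 of 3355 BRD3 regions without BRD2 (66.6%, 65.0% to 68.2%). Between genes lay 10.6% (7.19% to 15.0%) of the BRD2 regions without BRD3 and 15.9% (12% to 20.4%) of the co-bound BRD2 regions, with overlapping intervals. BRD2 regions between genes were co-bound in 50 of 78 cases (64.1%, 52.4% to 74.7%), and those at gene ends in 205 of 398 (51.5%, 46.5% to 56.5%). These intervals overlap too.

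Measured from annotated transcription starts, BRD3 without BRD2 was centred slightly before the start, and the medians of the other classes lay slightly after it. Of the regions with a start within 1 kb of the midpoint and starts on 1 strand only, the median position was 27 bp before the start for 1676 BRD3 regions without BRD2. It was 45 bp after the start for 159 co-bound BRD3 regions, 27 bp after for 159 co-bound BRD2 regions and 15 bp after for 150 BRD2 regions without BRD3. The midpoint was downstream in 40.7% (38.3% to 43.1%) of the BRD3 regions without BRD2 and in 56.6% (48.5% to 64.4%) of the co-bound BRD3 regions, intervals that do not overlap. For BRD2 the shares were 52.7% (44.4% to 60.9%) without BRD3 and 54.1% (46.0% to 62.0%) co-bound. Apart from BRD3 without BRD2, the interval of every class includes an even split between before and after the start. These BRD3 classes also differ in width, and its part in the offset was not tested.

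**Figure D2:**
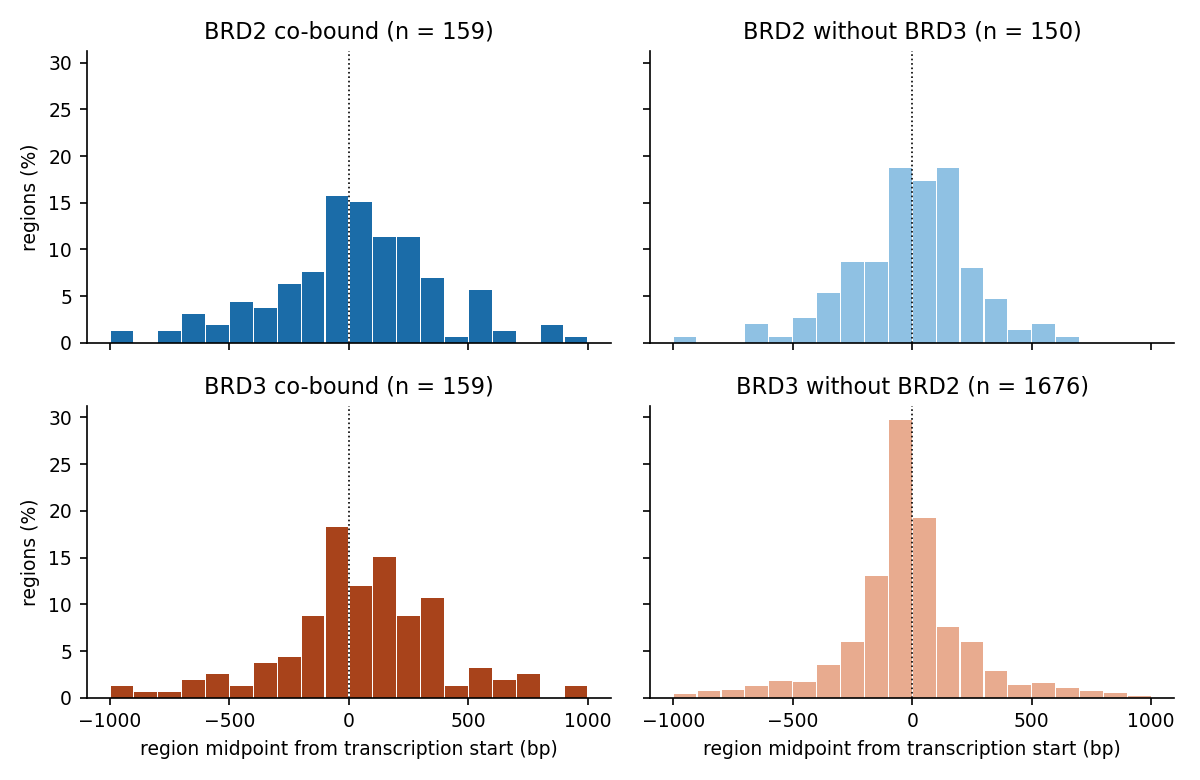
Share of regions (vertical axis, percent) by distance of the midpoint from the nearest annotated transcription start (horizontal axis, bp, negative before the start, bars of 100 bp) in each of the 4 classes. BRD3 regions without BRD2 peak in the 100 bp before the start, while the other classes spread further downstream.

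Most regions without the other protein in untreated cells had no call of it in the treated lists either. Of the 263 BRD2 regions without BRD3, 57 (21.7%, 16.8% to 27.1%) overlapped a BRD3 region in any of the 3 treated BRD3 lists, 50 of them with RANKL. Among co-bound BRD2 regions 224 of 315 did (71.1%, 65.8% to 76.1%). Co-bound regions were chosen by an untreated BRD3 call, so part of this contrast is set by how the classes were formed. The same BRD2 regions without BRD3 were found again in the BRD2 lists at shares whose intervals overlap those of co-bound ones. They were called in 51.3% (45.1% to 57.5%) of cases with RANKL, 47.5% (41.4% to 53.8%) with I-BET and 21.7% (16.8% to 27.1%) with both. Co-bound BRD2 regions gave 61.3% (55.6% to 66.7%), 47.0% (41.4% to 52.7%) and 19.7% (15.4% to 24.5%).

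The BRD3 side differed more between the classes. BRD3 regions without BRD2 were called again in 76.0% (74.5% to 77.4%) of cases with RANKL, 54.6% (52.9% to 56.3%) with I-BET and 66.1% (64.5% to 67.7%) with both. Co-bound BRD3 regions gave 69.3% (63.9% to 74.4%), 38.7% (33.2% to 44.3%) and 43.5% (37.9% to 49.1%). The gap was widest in the second quartile of width (532 to 712 bp), where the I-BET list held 70.0% (66.8% to 73.0%) of 856 regions without BRD2 and 32.8% (21.3% to 46.0%) of 61 co-bound ones. In the widest quartile, which held 154 co-bound regions, the I-BET shares were 36.2% (32.8% to 39.7%) without BRD2 and 39.6% (31.8% to 47.8%) co-bound. There the RANKL shares were 71.3% (67.9% to 74.5%) and 75.3% (67.7% to 81.9%), and with both agents 43.6% (40.1% to 47.2%) and 44.8% (36.8% to 53.0%). The intervals overlapped for each treatment. The classes differ in width, and its part in the gap was not tested. BRD2 appeared in any treated BRD2 list at 728 of the 3355 BRD3 regions without BRD2 (21.7%, 20.3% to 23.1%), most often with RANKL (16.3%, 15.1% to 17.6%), whose list of 1716 regions is also the longest of the BRD2 lists. The treated BRD2 lists hold 245 to 1716 regions, each fewer than the 3355, which limits how many could overlap one.

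**Figure D3:**
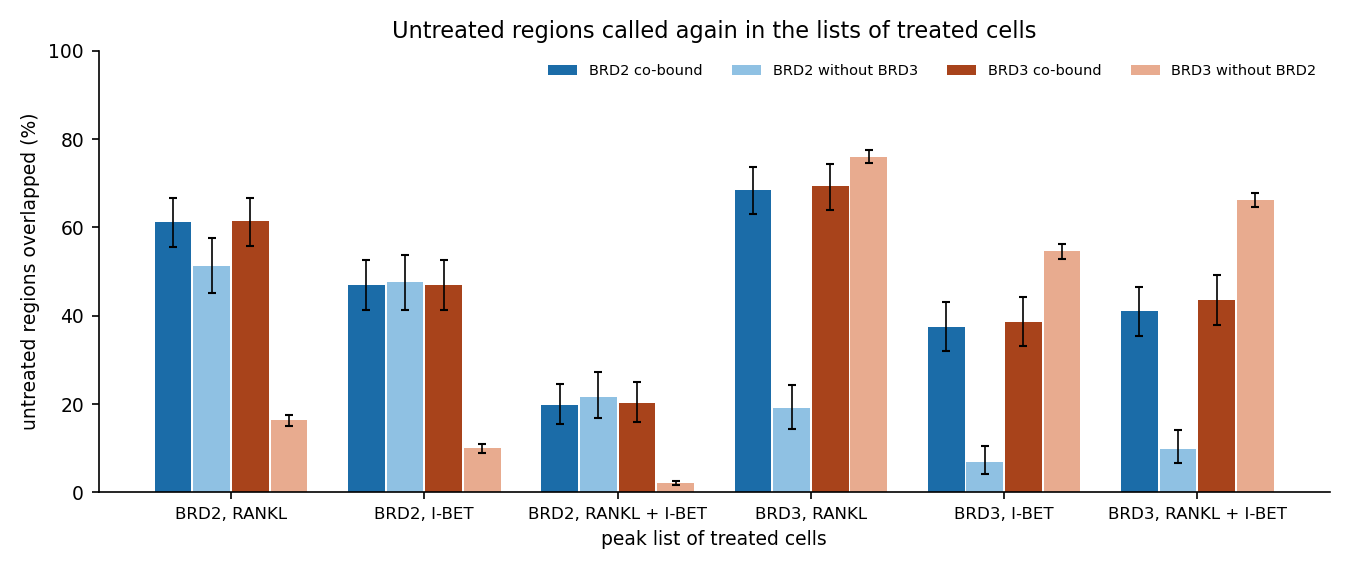
Share of untreated regions of each class (vertical axis, percent, exact 95% intervals) that overlapped a region in each of the 6 lists of treated cells (horizontal axis). BRD2 regions without BRD3 have shares close to co-bound ones in the BRD2 lists and lie far below them in the BRD3 lists, 19% against 68.6% with RANKL. Co-bound regions were chosen by an untreated BRD3 call, so part of the BRD3 contrast is set by how the classes were formed.

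By genes, the proteins divided in the same way. A gene was counted for a protein when a region reached to within 1 kb of its 5′ or 3′ end. Of 21887 protein-coding genes, 494 had BRD2 (2.26%) and 3065 had BRD3 (14%). Both were called at 254 genes (1.16%), BRD2 without BRD3 at 240 (1.1%) and BRD3 without BRD2 at 2811 (12.8%), and these shares are the background for the lists below. The 254 are 51.4% (46.9% to 55.9%) of the BRD2 genes and 8.29% (7.33% to 9.32%) of the BRD3 genes. At 250 of the 254 the regions themselves overlapped. At the other 4, Cd68, Mrpl58, Tmed10 and Ufc1, they lay apart.

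The 4 macrophage identity genes with BRD2 had BRD3 as well, as 51.4% of all BRD2 genes did. Of 35 macrophage identity genes, 4 had both (11.4%), 8 had BRD3 without BRD2 (22.9%) and none had BRD2 alone. Spi1 encodes PU.1, the ETS factor that specifies the myeloid lineage. It had a BRD2 region of 2750 bp (chr2:91081805-91084554) inside a BRD3 region of 4010 bp (chr2:91081221-91085230), both spanning an end of the gene. Cebpa, another myeloid transcription factor gene, had 859 bp of BRD2 within 2116 bp of BRD3. The lysozyme gene Lyz1 had 2066 bp of BRD2 (chr10:117291816-117293881) within 4474 bp of BRD3 (chr10:117290390-117294863), and its neighbour Lyz2 had neither in untreated cells. At all 3 of these genes the BRD3 region enclosed the BRD2 region on both sides.

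Cd68, a lysosomal glycoprotein gene, was a different case. Its BRD2 region (chr11:69665541-69666107) and its BRD3 region (chr11:69662328-69663630) lay near opposite ends of the gene, and with a window of 500 bp Cd68 counted as BRD2 without BRD3. The same BRD2 region is within 1 kb of Eif4a1, an RNA helicase gene of translation initiation, which therefore counted as BRD2 without BRD3. The 8 macrophage genes with BRD3 alone, named after their values were seen, were Csf1r, Cx3cr1, Fcgr3, Fcer1g, Msr1, Laptm5, Tyrobp and Ctss. They encode the M-CSF receptor, the fractalkine receptor, Fc receptor chains, a scavenger receptor, a lysosomal membrane protein, a signalling adaptor and cathepsin S. The Csf1r region was 3095 bp wide. Zeb2, a zinc-finger transcription factor gene, held the widest BRD3 region of the list (10614 bp), with BRD2 regions of 1810 bp and 3316 bp.

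As a check of the cell type, 8 of 14 macrophage markers had a BRD3 region and 2 (Spi1 and Cd68) a BRD2 region. None of the 6 T cell, 5 B cell, 4 erythroid, 4 fibroblast and 6 osteoclast markers had either. Of all genes 14% had BRD3 and 2.26% BRD2, so lists of 4 to 6 genes would hold few calls and these zeros decide little. The longer list of 29 osteoclast genes had 5 with BRD3, among them Tyrobp and Fcer1g, which are also macrophage markers here. Peak lists show where the proteins were called and not how strongly genes are expressed.

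Among signalling genes that RANKL acts on, BRD2 was called at 2 of 32 RANK and NF-κB genes (6.25%, against 2.26% of all genes). Tab1, an adaptor of the kinase TAK1, had both, 7 had BRD3 without BRD2 (21.9%) and Nfkb1 had BRD2 alone. Nfkb1 encodes the p105 and p50 NF-κB subunit, and its BRD2 region was 1112 bp wide (chr3:135690788-135691899). A BRD3 region was called at Nfkb1 with RANKL and in no other BRD3 list. The inhibitor gene Nfkbia had the mirror pattern, BRD3 alone over 1824 bp (chr12:55491288-55493111). Of 26 immediate early genes 6 had BRD3 alone (23.1%) and none had BRD2, with 1878 bp at Jun and 2356 bp at Junb, which encode AP-1 subunits. Fos had neither. Of 29 osteoclast genes 5 had BRD3 alone (17.2%), of 20 inflammatory genes 3 (15.0%) and of 18 interferon genes 2 (11.1%), all near the background of 12.8%. None of those 3 lists had a gene with BRD2, which is called at 2.26% of all genes, so lists of this length would hold few. Nfatc1, Ctsk and Tnf had neither protein.

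The BET genes themselves differed. Brd2 had a BRD3 region of 3902 bp (chr17:34119211-34123112) and no BRD2 region in untreated cells, while BRD2 was called there in each of the 3 treated lists. Brd3 had neither within 1 kb of its ends. Of 25 BET and elongation genes, Ccnt2, which encodes the cyclin partner of the elongation kinase CDK9, had both proteins and 7 had BRD3 alone (28.0%). Among those 7, Hexim1, the inhibitor of that kinase and a known BET-responsive gene, had 1697 bp of BRD3. Myc had neither. Of 36 genes of the MYC network, 3 had both (Nop56, Cdk4 and Ran), 3 had BRD2 alone (Eif4e, Eif4a1 and Mybbp1a) and 16 had BRD3 alone (44.4%). Nop56 is a nucleolar protein of rRNA processing, Cdk4 a cell cycle kinase, Ran the GTPase of nuclear transport, Eif4e the cap-binding factor and Mybbp1a a nucleolar protein. Of 13 growth and heat shock genes, the chaperone genes Hspa8 and Cct3 had both, and Hspa9, a mitochondrial chaperone, had BRD2 alone. Another 4 had BRD3 alone (30.8%) and 6 had neither.

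BRD2 was called at more of the cytosolic ribosomal protein genes than of all genes. Of 88 such genes, 23 had BRD2 (26.1%, against 2.26%), 14 of them without BRD3 (15.9%, against a background of 1.1%), 9 had both and 26 had BRD3 alone. The 14 are 60.9% of the 23, and of all 494 genes with BRD2, 240 lacked BRD3, so the split itself is near that of all BRD2 genes. Among those with BRD2 alone were Rpl13a (1117 bp, chr7:45128272-45129388), Rpl27a (349 bp) and Rpl3 (915 bp, chr15:80083153-80084067). The 14 regions lay on 9 chromosomes and had a median width of 540 bp. Among the 9 with both, Rpl10a had 1028 bp of BRD2 inside 1735 bp of BRD3, Rpl32 464 bp inside 881 bp and Rpl37a 479 bp inside 571 bp. Processed copies of ribosomal protein genes are common in the genome, and the settings by which reads were assigned are not given in the sources used here. Of 71 translation factor genes, 6 had BRD2 alone (8.45%), among them Eif1b, Eif3b and Eif3m, 2 had both (Eif4b and Eif4e2) and 25 had BRD3 alone. Of 78 mitochondrial ribosomal protein genes, 5 had BRD2 alone (6.41%) and 19 BRD3 alone (24.4%).

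RNA-processing genes were found in all 3 classes. Of 69 splicing and hnRNP genes, 7 had both (10.1%), 6 BRD2 alone (8.70%) and 26 BRD3 alone (37.7%). Hnrnpa2b1, Hnrnpa3 and Hnrnpab, which encode hnRNP proteins, had both, with BRD2 regions of 2203 bp, 1212 bp and 1170 bp. Hnrnpul1, Prpf4 and Snrpa had BRD2 alone, over 1359 bp, 920 bp and 1130 bp.

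Histone and respiratory chain genes had BRD3 alone at shares above the background and BRD2 alone at 1 gene. Of 68 histone genes, 48 had BRD3 alone (70.6%, against a background of 12.8%), H4c14 had both and none had BRD2 alone. The 48 genes shared 27 BRD3 regions on 3 chromosomes, of 574 to 3632 bp and a median of 1957 bp, so neighbouring genes of a cluster are not separate observations, and near-identical copies can share reads. At H4c14 (chr3:96262590-96263986) the BRD2 region of 1397 bp lay inside 1988 bp of BRD3. Of 96 oxidative phosphorylation genes, 37 had BRD3 alone (38.5%), Ndufa7 and Uqcrh had both and Ndufc2 had BRD2 alone (1.04%). These 3 encode subunits of complexes I and III. Of 57 chromatin modifier genes, 20 had BRD3 alone (35.1%) and 3 both (Kat6a, Kdm5d and Setd1b). Of 69 Rab GTPase genes, 15 had BRD3 alone (21.7%) and none had BRD2. Of 397 zinc-finger genes named Zfp, 63 had BRD3 alone (15.9%), 6 BRD2 alone and 3 both. In the remaining lists BRD3 alone was above its background. BRD3 alone was at 13 of 54 lysosome and V-ATPase genes (24.1%), 10 of 51 proteasome genes (19.6%), 13 of 35 tRNA synthetase genes (37.1%), 9 of 28 RNA polymerase subunits (32.1%), 14 of 45 Mediator and Integrator subunits (31.1%) and 12 of 53 DEAD and DEAH helicases (22.6%). BRD2 alone was called at 1 or 2 genes of each of these lists (1.85% to 3.77%, against 1.1% of all genes). In lists of this length a single gene already exceeds the background, so these counts are too small to compare with it.

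**Figure D4:**
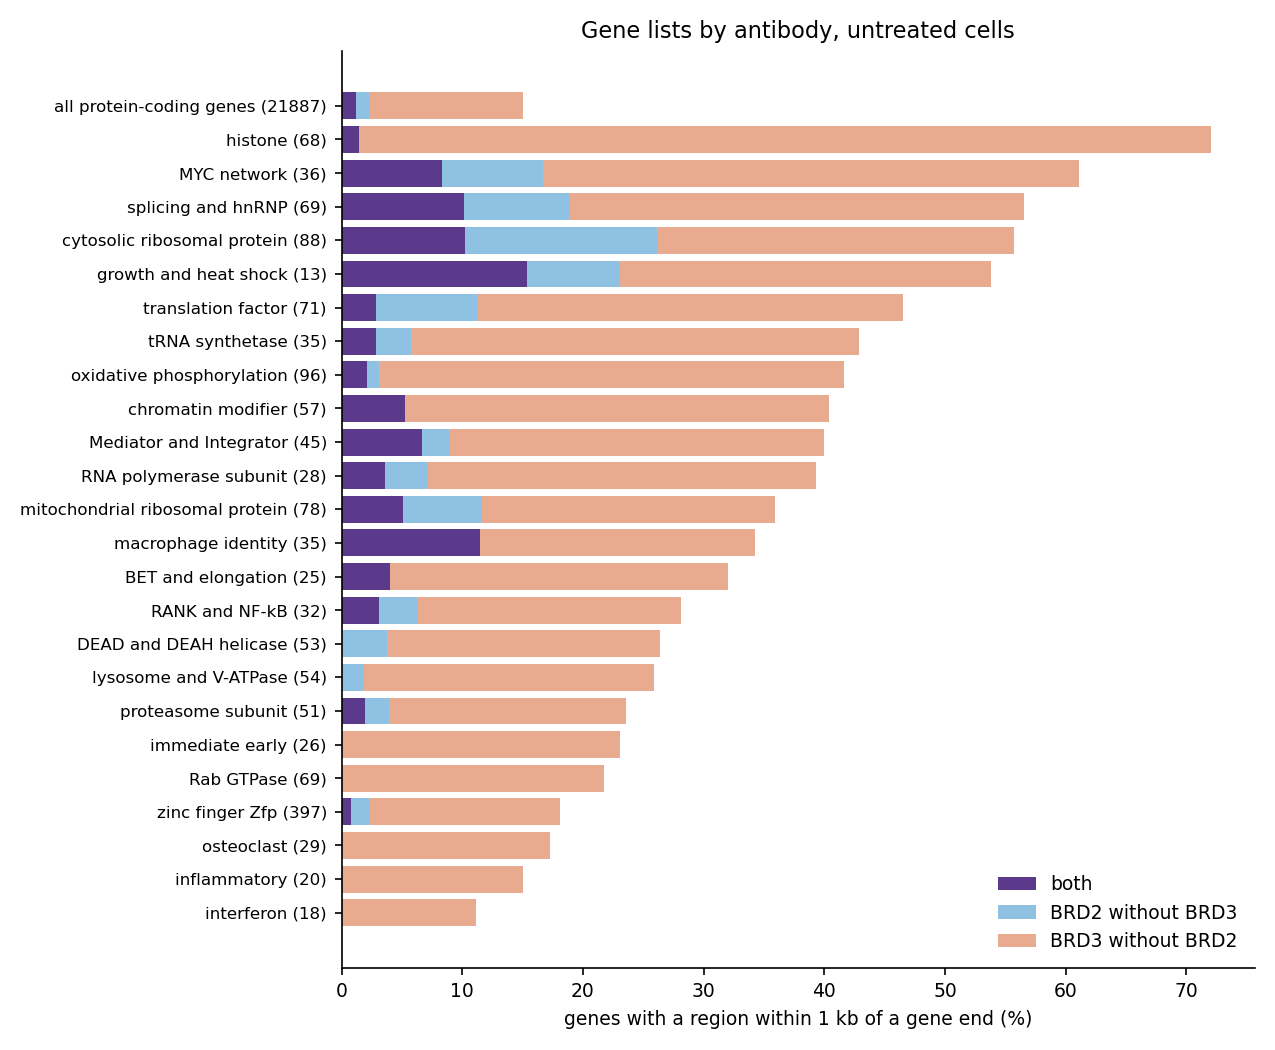
Share of each gene list (horizontal axis, percent of its genes, number in brackets) with both proteins, BRD2 without BRD3 or BRD3 without BRD2 within 1 kb of a gene end. The top bar gives all protein-coding genes. Cytosolic ribosomal protein genes have the longest bar segment for BRD2 without BRD3 (15.9%) and histone genes the longest for BRD3 without BRD2 (70.6%).

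Among single regions, the highest-scoring co-bound BRD2 regions lay at Kat6a (chr8:22859529-22859997), Nupl1, Plekha2, Sem1 and the neighbouring ends of Smim19 and Slc20a2. Kat6a encodes a histone acetyltransferase, Nupl1 a nucleoporin, Sem1 a proteasome subunit and Slc20a2 a phosphate transporter. For BRD2 without BRD3 they lay at Brpf3 (chr17:28800907-28801599), a scaffold of acetyltransferase complexes, at pseudogene records Gm20584 and Gm20583 on chromosome 8, at Srp19, a signal recognition particle subunit, and at Brf2, a factor of RNA polymerase III. Kat6a, Plekha2, Smim19, Slc20a2, Gm20584, Gm20583 and Brf2 all lie between 20 and 30 Mb of chromosome 8. BRD2 scores were high along that stretch (median 98.0, against 41.3 for the list), so these ranks are not particular to the single genes. For BRD3 without BRD2 they lay at Gon4l (chr3:88834962-88835422), at Nrf1 (chr6:30047580-30048561), the gene of the factor whose site is described below, at Pdf and Cog8, at a site 5.79 kb from Rdm1, and at Galnt1.

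The widest co-bound BRD2 regions lay inside gene bodies, at Lcp1 (3608 bp), an actin-bundling protein of leukocytes, Rhof, Tgif1, Zeb2 and Tnrc18. Without BRD3 the widest was 5464 bp over Rn18s-rs5 (chr17:39843336-39848799), a copy of the ribosomal RNA gene, a repeated sequence to which reads of many copies can be assigned. It was followed by Etv1 (2282 bp), an ETS factor gene. The widest BRD3 regions without BRD2 lay in Pid1 (7997 bp), in Apobec1 (7078 bp), over the long non-coding RNA Neat1 (6435 bp, chr19:5843728-5850162), in Ahnak (6047 bp) and near Dppa3 (5874 bp). The neighbouring Malat1 had 3323 bp of BRD3 without BRD2.

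Genes of small non-coding RNAs were under few regions of any class. Of the 3355 BRD3 regions without BRD2, 27 overlapped a tRNA gene (0.805%, 0.531% to 1.17%) and 16 an snRNA gene (0.477%, 0.273% to 0.773%). No BRD2 region overlapped an snRNA gene. The exact upper limits were 1.16% for co-bound BRD2 regions and 1.39% for BRD2 without BRD3, so no difference in snRNA genes was detectable. Of the 315 co-bound BRD2 regions none overlapped a tRNA gene, which allows a share of up to 0.952% (3 regions of the total, a rule apart from the exact intervals), so a difference was not detectable at this number of regions. The 3 BRD2 regions without BRD3 over a tRNA gene (1.14%, 0.236% to 3.30%) held n-TGgcc3, n-TPcgg2 and n-TLaag4. MicroRNA genes were under 4 BRD2 regions without BRD3 (1.52%, 0.416% to 3.85%) and 20 BRD3 regions without BRD2 (0.596%, 0.364% to 0.919%), with overlapping intervals as for tRNA genes. The microRNA gene Mirlet7i, a member of the let-7 family, was under a co-bound pair of 1456 bp of BRD2 inside 1659 bp of BRD3 (chr10:122985210-122986868).

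Promoters of the classes also differed in the motifs they hold. Of 32851 RefSeq promoters (250 bases before to 50 after a start), 275 overlapped a region of both proteins (0.837%), 257 BRD2 without BRD3 (0.782%) and 2855 BRD3 without BRD2 (8.69%). All classes were rich in G and C. Median GC was 64.3% with both, 60.0% with BRD2 alone, 64.0% with BRD3 alone and 51.7% with neither, and CpG dinucleotides per 100 bases were 9, 7.67, 8.67 and 2.

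The NRF1 letters GCATGCGC, as in the Cog6 and Cep57l1 promoters printed above, went with BRD3. Searched on both strands, they were in 513 of 2855 promoters with BRD3 alone (18%, 16.6% to 19.4%), in 28 of 275 with both (10.2%, 6.87% to 14.4%), in 5 of 257 with BRD2 alone (1.95%, 0.635% to 4.48%) and in 1.17% of promoters with neither. Of all promoters 2.71% hold them. Read the other way, 541 of the 891 promoters with these letters overlapped a BRD3 region (60.7%, 57.4% to 63.9%) and 33 a BRD2 region (3.70%, 2.56% to 5.16%), where 9.53% and 1.62% of all promoters did. The 5 with BRD2 alone, named after their values were seen, were those of Fam227b, Dtwd1, Rpl5, Racgap1 and N6amt1.

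The NRF1 letters were at a lower share with BRD2 alone than with BRD3 alone at each CpG level examined and in the lists of treated cells. For promoters of 5 to 7, 7 to 9, 9 to 11 and at least 11 CpG per 100 bases, the share with BRD3 alone was 22.4%, 21.2%, 17.9% and 14.5%, and with BRD2 alone 2 of 52, 0 of 56, 2 of 44 and 0 of 50. The intervals overlap at 9 to 11 CpG and not at the other levels. With classes formed anew from the lists of each treatment, promoters with BRD2 alone held the letters in 1.75% (RANKL), 2.23% (I-BET) and 1.59% (both agents) and those with BRD3 alone in 19.4%, 23.2% and 21.8%. These classes share many promoters with the untreated ones and are not independent of them. Cut to the 578 highest-scoring BRD3 regions, the untreated shares were 6.15% (4.19% to 8.66%) with BRD2 alone and 19.4% (15.8% to 23.5%) with BRD3 alone, since promoters with lower-scoring BRD3 regions then count as BRD2 alone.

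In the untreated lists, the ETS letters CCGGAAGT and the YY1 letters AAGATGGC were at the highest share in promoters with BRD2 alone, as in the Dmap1 and Hnrnpul1 promoters above. The ETS letters were in 44 of 257 promoters with BRD2 alone (17.1%, 12.7% to 22.3%), 10.9% (7.48% to 15.2%) with both, 8.27% (7.28% to 9.34%) with BRD3 alone and 3.28% with neither, and in 3.89% of all promoters. The YY1 letters were in 11.7% (8.02% to 16.2%), 7.27% (4.50% to 11%), 5.39% (4.59% to 6.29%) and 2.37%, and in 2.75% of all promoters. For either motif the interval with both proteins overlapped those of BRD2 alone and BRD3 alone. Read the other way, 20.8% of promoters with the ETS letters overlapped a BRD3 region and 5.79% a BRD2 region. For the YY1 letters these shares were 19.3% and 5.54%. For all promoters they were 9.53% and 1.62%, so both proteins were above that background. All promoters hold fewer CpG (median 2.33 per 100 bases) than those with either protein, and promoters of like CpG are compared below. ETS matches lay close to the start in each class, at a median of 22 bases before it with BRD2 alone, 31 with both and 35 with BRD3 alone. Within the 100 bases before the start or after it fell 43 of 53, 24 of 32 and 181 of 251 matches. With classes from the treated lists, ETS letters were in 15.7% (RANKL), 13.8% (I-BET) and 19.8% (both agents) of promoters with BRD2 alone. They were in 9.25%, 8.64% and 9.16% with BRD3 alone and in 11.1%, 14.8% and 11.1% with both proteins. YY1 letters were in 8.85%, 9.22% and 11.1% with BRD2 alone and 5.69%, 5.83% and 6.03% with BRD3 alone. With both proteins they were in 8.30%, 9.87% and 15.9%. Both proteins thus stood above BRD2 alone with I-BET for either motif, and with both agents for YY1, with overlapping intervals.

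Split by the same CpG levels, the lean of these letters to BRD2 alone was less even than that of NRF1 to BRD3. The ETS letters were in 13.5%, 32.1%, 15.9% and 8% of promoters with BRD2 alone and in 10.3%, 11.1%, 9.21% and 4.97% with BRD3 alone, with intervals apart at 7 to 9 CpG only. Promoters with neither protein held them in 8.29%, 9.12%, 8.63% and 6.23%. These intervals overlapped those of BRD3 alone at every level, and at 11 or more CpG BRD3 alone was the lower. The YY1 letters were in 17.3%, 8.93%, 22.7% and 4.00% with BRD2 alone and in 8.18%, 5.30%, 5.53% and 4.60% with BRD3 alone. Their intervals were apart at 9 to 11 CpG only, and at 11 or more the order turned. With neither protein the YY1 letters were in 4.35%, 4.87%, 3.44% and 3.28%, with intervals apart from BRD3 alone at 5 to 7 CpG only.

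The GC box, known as a site of SP family factors, also differed between the classes. The letters GGGCGG were in 72.7% (71.0% to 74.3%) of promoters with BRD3 alone, 64.0% (58.0% to 69.7%) with both and 52.9% (46.6% to 59.2%) with BRD2 alone, against 35.7% of all promoters. By CpG level the shares were 61.6%, 72.5%, 80.2% and 88.7% with BRD3 alone and 34.6%, 55.4%, 79.5% and 80.0% with BRD2 alone. The intervals of these classes overlapped at the upper 2 levels. Promoters with neither protein held the letters in 65.3%, 76.1%, 82.4% and 90.3% at the same levels. At like CpG, BRD3 alone was therefore not above promoters with neither. The PU.1 letters GAGGAAGT, which share their last 6 letters with the ETS motif and cannot match at the same place, were in 5.06% (2.72% to 8.49%) with BRD2 alone and 2.31% (1.79% to 2.93%) with BRD3 alone, with overlapping intervals. They were in 3.20% of all promoters. The intervals of BRD2 alone and BRD3 alone also overlapped for the E-box CACGTG (14.0% and 11.6%), the CRE letters TGACGTCA (3.11% and 3.40%), the C/EBP letters TTGCNNAA (5.06% and 7.39%), the AP-1 letters TGANTCA (4.28% and 2.98%), TATAAA (5.06% and 5.67%) and CCAAT, the NF-Y letters (27.6% and 34.0%). Over all promoters the shares were, in the same order, 7.15%, 1.79%, 10.8%, 7.81%, 13.6% and 37.4%. E-box and CRE shares were thus higher in either class than over all promoters, and the others lower. All promoters hold fewer CpG, and its part in this was not tested. A match describes these letters and is neither a measured site nor a cause.

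**Figure D5:**
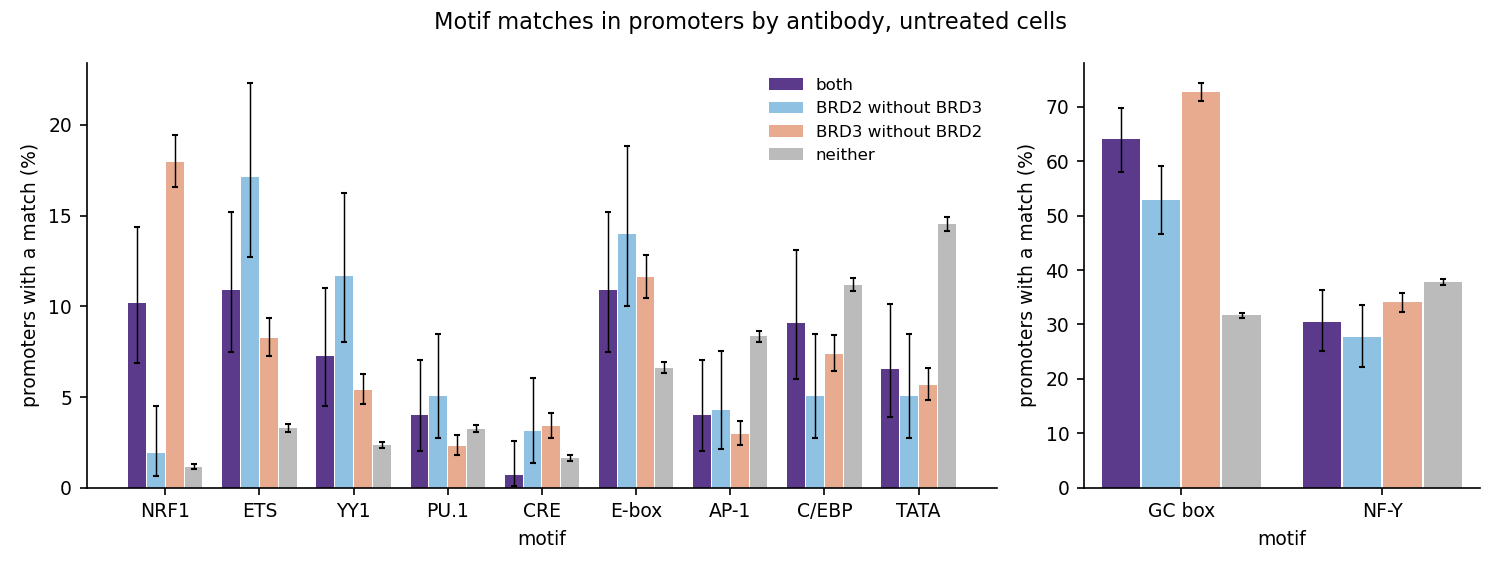
Share of promoters with a match to each motif (vertical axes, percent, exact 95% intervals, separate scales left and right) for promoters that overlap a region of both proteins, BRD2 without BRD3, BRD3 without BRD2, or neither. NRF1 matches stand at 18% with BRD3 alone and 1.95% with BRD2 alone, and ETS matches at 8.27% and 17.1%.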

How the data were processed

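BRD2 and BRD3 ChIP-seq peak lists were analysed. The submitters' processing notes name the mm10/GRCm38 build, MACS2 (2.1.1.20160309), Bowtie2 (2.3.4.1) and FastQC, with no settings. The deposited lists hold a position, the names of joined peaks and a score for every region. The joined names in the deposited lists come from peak sets numbered by the authors, and 99.1% of BRD2 and 98.6% of BRD3 regions join 3. The sources used here do not say what the sets or the score are. Starts were read as counted from 0 and are printed from 1. Overlaps, gene windows and intervals were computed with Python 3.11.15, numpy 2.4.6, pandas 2.3.3 and scipy 1.17.1, on RefSeq (GRCm38.p6; 17492 of 21887 protein-coding genes have a promoter entry), and the overlap code was tested on simulated regions. Of 235 genes sought in 9 lists 234 matched, and 15 further lists came from name patterns. Members, lists and named genes were chosen with earlier results of these data known. Named were 26 fixed genes, list members with BRD2 and no BRD3, up to 5 per list with both, genes at the 5 highest-scoring and 5 widest regions of each class, and up to 4 examples per pattern list and class, in alphabetical order; a few of these genes are not reported here. There was 1 library per antibody and hence no test. The 4 inputs were not used. Other overlap rules, gene windows and list cuts were tried as alternatives.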

Additional observations from a re-analysis of the deposited data

How the results depend on the processing

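Of 89 alternative values for 27 results, 56 stayed within the counting interval of the reported value, or within 1.5 times a reported count, and 33 did not. Requiring 50% of the shorter region, allowing a gap of 500 bp or keeping regions of exactly 3 joined peaks moved neither overlap share, and requiring 50% overlap moved none of the values it was tried on. With midpoints within 250 bp, 38.4% of BRD2 and 6.05% of BRD3 regions were shared. With the upper 50% of each list by score the shares were 26.3% and 4.14%. With the BRD3 list cut to the length of the BRD2 list, the BRD2 share was 8.82% by score and 19.2% by width, and the BRD3 share by width 18.7%. These cuts keep fewer regions by construction.

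The gene-end share with a window of 500 bp was 51.1% (BRD2 co-bound), 66.9% (BRD2 without BRD3), 53.7% (BRD3 co-bound) and 60.1% (BRD3 without BRD2). With 2 kb it was 69% for co-bound BRD3 and 71.7% for BRD3 without BRD2, and from transcription starts alone 63.1% for the latter. In the upper 50% by score the median width was 907 bp for co-bound BRD2, 755 bp for BRD2 without BRD3, 1039 bp for co-bound BRD3 and 706 bp for BRD3 without BRD2. The 95% intervals then overlapped for BRD2 (671 to 1076 bp and 707 to 865 bp) and not for BRD3 (800 to 1255 bp and 684 to 729 bp).

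Genes with both proteins numbered 63 in the upper 50% by score and 45 with the BRD3 list cut by score. In the same settings BRD3 without BRD2 was called at 1480 and 444 genes, and the cut left 449 genes with BRD2 without BRD3. Of the fixed genes, 2 had BRD2 without BRD3 with a window of 500 bp, Nfkb1 and Cd68, and 1 otherwise.

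Motif settings were chosen after seeing the data. With the BRD3 list cut by score, NRF1 letters were in 6.82% (both), 6.15% (BRD2 alone) and 19.4% (BRD3 alone) of promoters. ETS letters were then in 20.5% (9.80% to 35.3%) with both and 13.3% (10.4% to 16.7%) with BRD2 alone, with overlapping intervals. With only the 250 bases before the start, NRF1 letters were in 15.1% with BRD3 alone, ETS letters in 11.3% with BRD2 alone and 6.09% with BRD3 alone, and YY1 letters in 4% with both, 7.004% with BRD2 alone and 2.49% with BRD3 alone. With 1 promoter per gene no motif share moved. In these 3 settings BRD2 alone stayed below BRD3 alone for NRF1 and above it for ETS and YY1. Within promoters of 11 or more CpG per 100 bases YY1 turned to 4.00% with BRD2 alone and 4.60% with BRD3 alone. Depth is unknown, so how many regions either library could have shown cannot be said.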

Other observations

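BRD2 scores were uneven along the genome, a pattern noticed after the values were seen. The 8 BRD2 regions between 20 and 30 Mb of chromosome 8 had a median score of 98.0 (38.0 to 126), against 41.3 for the whole list, the highest median of the 66 stretches of 10 Mb that held at least 4 BRD2 regions. The next highest were 54.2 on chromosome 15 and 53.7 on chromosome 7. Of the 10 highest BRD2 scores, 5 lay in this stretch, at Kat6a, Plekha2, the neighbouring ends of Smim19 and Slc20a2, Gm20584 and Gm20583. The 21 BRD3 regions of the same stretch had a median score of 79.7, against 74.7 for the BRD3 list, and ranked 96th of 225 stretches. BRD2 regions there were co-bound in 4 of 8 cases. Within a list the score is only a rank, and its cause here was not tested.

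Among BRD2 regions without BRD3, the share with a BRD3 call in a treated list was higher in the wider quartiles, with overlapping intervals for the narrowest and the widest. A wider region has more bases with which to overlap, and its part in this was not tested. From the narrowest to the widest quartile the counts were 13 of 96 (13.5%, 95% interval 7.41% to 22.0%), 12 of 72 (16.7%), 21 of 63 (33.3%) and 11 of 32 (34.4%, 18.6% to 53.2%).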
